A study of Homo sapiens with 17 samples.

Results

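The genes described here were the 10 replication licensing genes MCM2, MCM3, MCM4, MCM5, MCM6, MCM7, MCM10, CDC6, CDT1 and GINS2, chosen by name, and all 10 were found among the 9699 genes of the deposited table. Licensing is the step in which a cell prepares its DNA for copying. In G1 phase the origin recognition complex marks replication origins, CDC6 and CDT1 join it, and together they load the MCM2 to MCM7 ring, which is the motor of the replicative helicase. In S phase the ring is switched on when CDC45 and the GINS complex bind it and MCM10 acts on it, and geminin then holds CDT1 back so that no origin is used again in the same cycle. Many of these genes are textbook targets of E2F transcription factors, and cells that leave the cycle are known to lose MCM proteins.

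RNA-Seq and ribosome profiling (Ribo-Seq, sequencing of the mRNA stretches that ribosomes protect) had been applied to human BJ fibroblasts made immortal with the telomerase subunit hTERT. The 17 libraries, 9 of RNA and 8 of ribosome footprints, covered 5 states. These were proliferation in normal medium, quiescence brought on by serum depletion, pre-senescence at day 5 and senescence at day 14 of a RASG12V oncogene switched on with 4-OHT-tamoxifen, and a transformed state. The transformed cells carried hTERT, stable knockdowns that included p16INK4A, the SV40 small T antigen and a constitutive pBabe-puro-RASG12V construct. They were therefore not the inducible cells at a later time, and the knockdowns, small T and RAS of that line cannot be told apart here.

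The table held 12 columns, 6 of RNA and 6 of Ribo-Seq, in FPKM (fragments per kilobase of transcript, scaled to the reads of each library) with a floor of 1 FPKM. 5 of the columns were the authors' pooled values of replicate libraries: the RNA and Ribo-Seq columns of the first proliferating culture and of quiescence, and the RNA column of pre-senescence. The other 7 columns were 1 library each. There was thus 1 value for each state and assay, no error could be computed, and no test was made. Differences are given as log2 of the state over the proliferating culture of the same sequencing run, the first for quiescence and pre-senescence and the second for senescence and transformation. A gene is said to pass 2-fold, or to be called, where the values differed by 2-fold or more. The share of all 9699 genes that did so stands beside each first count. Counts under other settings, in the last section, carry no such share. Read totals are not in the table. The study lists them per library elsewhere, and they were not used here.

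Labels and cells were checked before the comparisons. The Ribo-Seq libraries titled as senescent and as the second proliferating culture each carried the other's condition in a separate label, and the titles, which the columns and the study's own sample list follow, were used here. In the columns so assigned, the proliferation gene MKI67 was at the floor in senescence in both assays, against 44.0 FPKM of RNA and 43.0 FPKM of Ribo-Seq in the second proliferating culture. CDKN1A, the p21 inhibitor of cyclin-dependent kinases, stood at 814 FPKM of RNA and 548 FPKM of Ribo-Seq in senescence, against 172 and 223 FPKM. Ribo-Seq followed RNA in both genes under this assignment. All 8 fibroblast markers were present in every RNA column, with a summed level of 4744 to 6751 FPKM. VIM was the largest part of that sum in every column, at 2956 to 4881 FPKM. Other markers were low in some columns, such as DCN at 3.68 FPKM in pre-senescence and PDGFRB at 4.49 FPKM in senescence. Rows for the 4 epithelial and 3 endothelial markers were not analysed here, and 1 of 3 blood cell markers, CD68, was listed at 38.3 to 132 FPKM. CDKN2A RNA, which encodes p16INK4A, was higher in the transformed column than in its proliferating culture, at 12.6 against 6.75 FPKM, while its Ribo-Seq value was lower, at 5.51 against 8.92 FPKM. The RNA value was thus not reduced while the Ribo-Seq value was, and CDKN2A by itself does not settle the label of a p16INK4A knockdown. The column is therefore called below the library labelled transformed. HRAS and ESR1 were read as checks of the RAS construct. HRAS RNA was 1254 to 2415 FPKM in the 5 other columns, the uninduced proliferating and quiescent ones included, and 312 FPKM in that library. ESR1 RNA was 9.31 to 144 FPKM in the 5 other columns and at the floor in that library.

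The promoters of the licensing genes were first read for letters known as E2F sites. RefSeq promoter windows on GRCh38.p14, from 250 bases before to 50 bases after the transcript start, matched 8 of the 10 genes, all but MCM4 and MCM5. The forms TTTCCCGC, TTTCGCGC, TTTGCCGC and TTTGGCGC were searched on both strands, and at least 1 of them occurred in 7 of the 8 genes and in 3.31% of 35116 promoters of the same length. MCM10 was the gene without such letters in this window. A CCAAT box, searched on both strands, occurred in 6 of the 8 genes and in 34.6% of all promoters. These units differ, as a gene was counted where any of its windows matched, while each promoter was counted by itself. The 8 genes had 10 windows, and MCM7 had more than 1. Below are 30 bases around the E2F form nearest the transcript start of each gene, with the matched letters in capitals. They are read 5′ to 3′ along the gene, and are shown as a shared feature that the choice of the genes did not use. MCM3, MCM6 and MCM7 each held another stretch of matched letters further from the start, which is not printed. A match is a description of the letters and not evidence of binding.
MCM2, chr3:127598404-127598433, plus strand: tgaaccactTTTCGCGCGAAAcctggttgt
MCM3, chr6:52284728-52284757, minus strand: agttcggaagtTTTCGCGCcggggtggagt
MCM6, chr2:135876513-135876542, minus strand: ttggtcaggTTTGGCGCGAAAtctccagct
MCM7, chr7:100101388-100101417, minus strand: ggggggcgacgTTTCGCGCcaatttcggtt
CDC6, chr17:40287875-40287904, plus strand: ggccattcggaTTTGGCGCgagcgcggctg
CDT1, chr16:88803743-88803772, plus strand: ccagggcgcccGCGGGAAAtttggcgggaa
GINS2, chr16:85688967-85688996, minus strand: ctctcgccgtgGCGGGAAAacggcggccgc

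In MCM2 and MCM6 the capitals run through matches on opposite strands that overlap, so that the stretch TTTCGCGCGAAA reads the same on both strands in MCM2. In CDT1 and GINS2 the form lies on the strand opposite to the gene. Counted from the transcript start, the first capital stands at +3 in MCM2, at -4 in MCM3, at -9 in MCM7 and at +8 in CDC6, and it stands further before the start in MCM6, at -90, in GINS2, at -31, and in CDT1, at -35.

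Across the 6 columns the licensing genes shared 1 pattern. RNA was lowest in senescence for 10 of 10 genes and highest in the first proliferating culture for 10 of 10. The next-lowest column lay 4.36-fold to 12.7-fold above the senescent one, so no other state came near it. In Ribo-Seq the senescent column was again lowest for 10 of 10 genes, with the next-lowest 3.29-fold to 17.9-fold above it, and the first proliferating culture was highest for 9 of 10, the exception being CDC6.

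The MCM2 to MCM7 ring subunits, each an ATPase of the helicase motor, included the most abundant member of every column. MCM7 RNA stood at 131 and 58.2 FPKM in the first and second proliferating cultures, 61.3 in quiescence, 91.4 in pre-senescence, 5.42 in senescence and 74.9 FPKM in the library labelled transformed. MCM5 RNA was 98.5 and 44.1 FPKM in the proliferating cultures, 44.1 in quiescence, 57.7 in pre-senescence, 5.50 in senescence and 37.9 FPKM in the library labelled transformed. The quiescent FPKM of MCM5 and MCM7 was thus close to that of the second proliferating culture, which came from the other run. Against the culture of their own run, quiescent cells were at a log2 difference of -1.16 for MCM5 and -1.09 for MCM7. Only the senescent values were far below both proliferating cultures.

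MCM4 RNA was 81.3 and 49.0 FPKM in the proliferating cultures, 39.4 in quiescence, 59.5 in pre-senescence, 6.68 in senescence and 52.4 FPKM in the library labelled transformed. MCM3 RNA was 72.0 and 39.6 FPKM in the proliferating cultures, 33.6 in quiescence, 40.0 in pre-senescence, 4.62 in senescence and 34.6 FPKM in the library labelled transformed. MCM2, the subunit that also chaperones histones at the fork, had RNA levels of 53.5 and 26.2 FPKM in the proliferating cultures, 24.2 in quiescence, 33.5 in pre-senescence, 3.19 in senescence and 26.3 FPKM in the library labelled transformed. In these 3 subunits pre-senescence lay between the 2 proliferating cultures, and the library labelled transformed lay near the second. MCM6 did not, as its RNA was 31.2 and 25.7 FPKM in the proliferating cultures, 17.9 in quiescence, 14.3 in pre-senescence, 2.57 in senescence and 11.98 FPKM in the library labelled transformed. It was the ring subunit with the lowest RNA level in every column.

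Ribo-Seq levels of the ring were higher than RNA levels in every column. MCM7 footprints were 271 and 97.4 FPKM in the proliferating cultures, 113 in quiescence, 148 in pre-senescence, 5.43 in senescence and 118 FPKM in the library labelled transformed. MCM6 footprints were 63.1 and 46.6 FPKM in the proliferating cultures, 38.0 in quiescence, 17.0 in pre-senescence, 5.18 in senescence and 23.3 FPKM in the library labelled transformed. The 2 subunits therefore lay far apart in most states and met only in senescence. Footprints of MCM2, MCM3, MCM4 and MCM5 ranged from 34.1 to 137 FPKM in the proliferating cultures and from 3.25 to 11.2 FPKM in senescence.

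CDC6 and CDT1 load the ring. CDC6 RNA, for the ATPase that joins the origin recognition complex, stood at 36.6 and 19.3 FPKM in the proliferating cultures, 16.6 in quiescence, 30.2 in pre-senescence, 1.63 in senescence and 34.5 FPKM in the library labelled transformed. CDC6 footprints were 42.0 and 28.5 FPKM in the proliferating cultures, 19.9 in quiescence, 28.2 in pre-senescence, 1.34 in senescence and 47.9 FPKM in the library labelled transformed. CDC6 was the only member whose footprints were highest in that library.

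CDT1, the loader that geminin holds back, had RNA levels of 30.1 and 12.7 FPKM in the proliferating cultures, 13.7 in quiescence, 20.2 in pre-senescence and 14.3 FPKM in the library labelled transformed. Its footprints were 54.0 and 16.1 FPKM in the proliferating cultures, 27.6 in quiescence, 29.0 in pre-senescence and 16.2 FPKM in the library labelled transformed. In senescence CDT1 was listed at the floor of 1 FPKM in both assays, so its differences there are lower bounds.

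MCM10 and GINS2 act after loading, when the helicase is switched on. MCM10 RNA was 13.0 and 8.26 FPKM in the proliferating cultures, 4.36 in quiescence, 9.86 in pre-senescence, at the floor in senescence and 8.38 FPKM in the library labelled transformed. MCM10 footprints were 23.5 and 12.9 FPKM in the proliferating cultures, 7.76 in quiescence, 9.30 in pre-senescence, at the floor in senescence and 19.6 FPKM in the library labelled transformed. MCM10 was thus the member with the lowest RNA in every column, level with CDT1 on the floor in senescence. GINS2, a subunit of the GINS complex, had RNA levels of 14.1 and 9.40 FPKM in the proliferating cultures, 6.67 in quiescence, 9.91 in pre-senescence, 1.04 in senescence and 10.2 FPKM in the library labelled transformed. GINS2 footprints were 39.3 and 36.3 FPKM in the proliferating cultures, 23.1 in quiescence, 33.0 in pre-senescence, 1.87 in senescence and 33.1 FPKM in the library labelled transformed. Apart from senescence, they were close to each other in all states but quiescence.

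The comparison of senescent with proliferating cells asks how far licensing was shut down after 14 days of oncogene induction. RNA of all 10 genes was lower by over 4-fold, with a median log2 difference of -3.14, where the median of all genes was -0.00. 10 of 10 passed 2-fold, against 13.0% of all genes, and 10 of 10 passed 4-fold, against 4.47%. Among the 8 genes off the floor the RNA difference ran from 7.33-fold for MCM4 to 11.8-fold for CDC6, and RNA was at least 8.26-fold lower for MCM10 and at least 12.7-fold lower for CDT1. In bulk samples fewer cycling cells and less RNA per cell cannot be told apart. Of the cell cycle genes read beside them, CCNA2, the cyclin of S and G2 phase, was at 1.02 FPKM of RNA against 43.2 FPKM. E2F1 RNA was at 2.23 against 13.6 FPKM, and CCNE2 RNA was at the floor against 2.99 FPKM. CCNE1 was not lower in senescence, at 7.06 against 5.62 FPKM of RNA and 6.28 against 5.67 FPKM of Ribo-Seq. Part of the fibroblast markers also differed between these columns, as COL1A1 RNA was 51.6 against 1328 FPKM, and their part in the result was not tested.

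In Ribo-Seq, 10 of 10 genes were lower in senescence by 2-fold or more, against 16.6% of all genes, and 10 of 10 by 4-fold or more, against 5.52%. The median log2 difference was -3.54, with -0.10 for all genes. Footprints differed least for MCM5, by 6.81-fold, and most for CDC6, by 21.3-fold, with GINS2 at 19.4-fold and MCM7 at 17.9-fold. CDT1 was at least 16.1-fold lower and MCM10 at least 12.9-fold lower. These values rest on the titles of the Ribo-Seq libraries, under which CCNA2 footprints were at the floor in senescence against 49.5 FPKM.

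The study's 2 oncogenic RAS time points were set beside each other through their own controls. At day 5 the RNA of the licensing genes had a median log2 difference of -0.55 from the first proliferating culture, and at day 14 of -3.14 from the second. Day 14 differed from day 5 by a median of -2.54 in RNA, from -2.20 for MCM6 to -3.29 for CDC6, with -0.06 for all genes. In Ribo-Seq the same difference had a median of -2.36, from -1.28 for MCM6 to -4.03 for GINS2. The 2 time points came from different runs and the day 14 state from 1 library per assay, so time and run cannot be told apart.

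The transformed line also carried RASG12V, and in its library the licensing genes stood near the level of the proliferating culture of the same run. Their median log2 difference was 0.06 in RNA and -0.07 in Ribo-Seq. In RNA 1 of 10 passed 2-fold lower, against 5.33% of all genes, and 0 of 10 passed 2-fold higher, against 4.92%. In Ribo-Seq 0 of 10 passed 2-fold lower, against 7.36%, and 0 of 10 passed 2-fold higher, against 5.28%. MCM6 was the gene that passed, at -1.10 in RNA, and its Ribo-Seq difference was -0.998, just short of 2-fold. The other ring subunits ran from -0.22 for MCM5 to 0.36 for MCM7 in RNA, so against this control MCM6 stood apart from the subunits it is assembled with. CDC6 was highest at 0.84 in RNA and 0.75 in Ribo-Seq, and MCM10 followed in Ribo-Seq only, at 0.61 against 0.02 in RNA. Against the first proliferating culture, of the other run, the medians were -0.91 in RNA and -1.07 in Ribo-Seq, and CDC6 RNA was at -0.09. MCM6 RNA did not stand apart there, as MCM6 and MCM5 were both at -1.38 and MCM3 was at -1.06, with MCM4 at -0.63.

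Set directly against the library labelled transformed, senescent cells had a median log2 difference of -3.06 in RNA and -3.67 in Ribo-Seq. 10 of 10 genes passed 2-fold in RNA, against 15.1% of all genes, and 10 of 10 passed 2-fold in Ribo-Seq, against 17.3%. MCM6 differed least in RNA, by 4.66-fold, and CDC6 most, by 21.2-fold. Footprints of CDC6 differed by 35.7-fold and those of MCM6 by 4.5-fold. Among the 8 genes off the floor these 2 marked the ends of the range in both assays, and the values of CDT1 and MCM10 are lower bounds.

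The comparison of quiescence asks what serum depletion did to the same genes. Against the first proliferating culture, RNA of all 10 was lower, with a median log2 difference of -1.12, and 9 of 10 passed 2-fold, against 2.37% of all genes. The size was alike across roles, from -1.04 for MCM4 to -1.16 for MCM5 among the genes that passed, with MCM10 lower still at -1.57 and MCM6 short of 2-fold at -0.80. In Ribo-Seq the median was -0.98 and 5 of 10 passed 2-fold, namely MCM2, MCM4, MCM7, MCM10 and CDC6, against 8.02% of all genes.

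That difference depended on which proliferating culture was used. Against the second one, which was sequenced in the other run, the median RNA difference was -0.22, from -0.92 for MCM10 to 0.11 for CDT1. The 2 proliferating cultures themselves differed, and RNA of all 10 genes was lower in the second, by a median log2 of -0.89. 4 of 10 passed 2-fold there, against 2.99% of all genes, namely MCM2, MCM5, MCM7 and CDT1, and in Ribo-Seq 4 of 10 passed, against 8.21%. The gap ran from -0.28 for MCM6 to -1.24 for CDT1 in RNA, and from -0.11 for GINS2 to -1.75 for CDT1 in Ribo-Seq. The median quiescent difference of -1.12 was thus close to the median distance of -0.89 between 2 cultures that both carried the label of proliferation. That distance also holds the difference between the runs, and the study lists the RNA libraries of the second run as not paired-end, unlike those of the first. It is therefore not a measure of the spread within a run. The senescent levels were far below either culture.

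Pre-senescence, 5 days into oncogene induction, showed smaller differences in RNA than in footprints. RNA had a median log2 difference of -0.55, and 1 of 10 genes, MCM6 at -1.13, passed 2-fold, against 2.0% of all genes. Footprints had a median of -0.99 and 5 of 10 genes passed, against 10.3%, namely MCM2, MCM3, MCM5, MCM6 and MCM10. Footprints were lower than RNA by more in 9 of 10 genes, the exception being GINS2, at -0.25 in Ribo-Seq and -0.51 in RNA. MCM6 had the largest Ribo-Seq difference, -1.89, and MCM10 combined a small RNA difference of -0.40 with a Ribo-Seq difference of -1.34. The Ribo-Seq column was 1 library. Against the proliferating culture of the other run the median RNA difference was 0.32, with 9 of 10 genes above 0, and the median Ribo-Seq difference was -0.08.

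Translation efficiency (TE), the log2 ratio of footprint to RNA FPKM of a gene in 1 state, puts the same comparison in a single measure. In pre-senescence TE was lower for 9 of 10 genes and higher for GINS2, with a median difference of -0.35 where all genes had -0.13. The values ran from -0.27 for MCM5 to -0.94 for MCM10 among the 9, and 0 of 10 passed 2-fold, against 8.85% of all genes. In quiescence TE was higher for 8 of 10 genes with a median of 0.08, and 0 of 10 passed 2-fold lower, against 4.17%, or higher, against 3.72%. In the library labelled transformed the median was -0.08 and 0 of 10 passed 2-fold lower, against 2.13%, with MCM10 alone past 1.5-fold, at 0.59.

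In senescence a TE can be read only for the 8 genes off the floor in both assays. It was lower for 5 and higher for 3 of them, with a median of -0.25 against -0.04 for the 8839 genes off the floor. GINS2 was at -1.10, the 1 member that passed 2-fold lower, against 6.08% of all genes, followed by CDC6 at -0.85 and MCM7 at -0.74. MCM4, MCM5 and MCM6 were at 0.06, 0.24 and 0.15. GINS2 and CDC6 lay within 1 FPKM of the floor in both assays of senescent cells, so their ratio there is sensitive to the floor.

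GINS2 also stood out by its level of TE. It was 1.48 and 1.95 in the proliferating cultures, 1.79 in quiescence, 1.74 in pre-senescence, 0.85 in senescence and 1.70 in the library labelled transformed. That was above 86.8% to 94.6% of all genes in the 5 columns other than senescence, and above 69.6% in senescence. CDC6 had the lowest TE of the members in the first proliferating culture, 0.20, where the median of all genes was 0.35, and it was -0.10 in pre-senescence and -0.28 in senescence. As a group the members had a median TE of 0.80 and 0.60 in the proliferating cultures, 0.82 in quiescence, 0.24 in pre-senescence and 0.58 in the library labelled transformed, where all genes had 0.35, 0.40, 0.31, 0.22 and 0.34. In senescence the 8 members off the floor had a median of 0.38, as did the 8997 genes off the floor there.

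Since the ring holds the 6 subunits in equal number, the make-up of its mRNA was followed across states as each subunit's share of the summed MCM2 to MCM7 FPKM. The sum of RNA was 467 and 243 FPKM in the proliferating cultures, 221 in quiescence, 296 in pre-senescence, 28.0 in senescence and 238 FPKM in the library labelled transformed. MCM7 was the largest share in 5 columns, 24.0% to 31.5% of the RNA, but held 19.4% in senescence, where MCM4 led with 23.9%. MCM6 was the smallest share of the RNA in every column. It held 6.69% and 10.6% of the RNA in the proliferating cultures, 8.14% in quiescence, 4.82% in pre-senescence, 9.19% in senescence and 5.03% in the library labelled transformed.

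The spread between the most and the least abundant ring subunit in RNA was 4.18-fold and 2.26-fold in the proliferating cultures, 3.42-fold in quiescence and 2.60-fold in senescence. It was larger in pre-senescence, 6.39-fold, and in the library labelled transformed, 6.25-fold. In footprints it was 8.71-fold in pre-senescence, 5.06-fold in the library labelled transformed and 2.85-fold to 4.29-fold in the 4 other columns. MCM7 held 38.3% and MCM6 4.39% of the ring footprints in pre-senescence, against 14.2% and 13.6% in senescence. The ring subunits were thus most unequal in pre-senescence and in the library labelled transformed, though each rested on the distance of MCM6 and MCM7 alone.

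The likeness of the members across columns was described by Pearson's r of log2 RNA over the 6 columns, which share the run structure and the 1 senescent library. The 45 pairs had r of 0.87 for MCM6 with CDC6 to 1.00, with a median of 0.99. Without the senescent column r ran from -0.12 to 0.98, with a median of 0.83, and MCM6 had a median r of 0.42 with the others. The likeness was thus lower without the senescent library, and MCM6 followed the other members least. Among the 1312 other genes that reached 5 FPKM and ranged over at least 2 log2 units, 254 had r above 0.95 with the mean of the members, and 33 genes did over the 5 columns without senescence. The 10 most alike were MMS22L, CENPH, PRR11, CDCA7L, TPX2, CHAF1B, RFC4, CCNB2, TOPBP1 and UHRF1. MMS22L led with r = 0.999 over 6 columns and 0.993 over 5, at 6.31 and 4.52 FPKM in the proliferating cultures and at the floor in senescence.

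Other genes of DNA replication were counted from a list of 53, of which 47 were measured. CUL4A, CDC7, DBF4B, RECQL4, PRIM2 and POLE were not among the rows matched and were not analysed here, and TICRR was found under an older symbol. In senescence 34 of 47 passed 2-fold lower in RNA and 0 higher, with a median log2 difference of -1.94. In quiescence 16 of 47 passed 2-fold lower, with a median of -0.88. In pre-senescence 1 did, SKP2, with a median of -0.19, and in the library labelled transformed 0 did, with a median of 0.16. The medians in senescence were thus -3.14 for the licensing members and -1.94 for the other replication genes, a difference that was not tested.

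Roles differed within the list. Of the 6 origin recognition subunits, 2 passed 2-fold in senescence. ORC1 RNA, the subunit that comes and goes with the cycle, was at the floor in senescence against 6.32 FPKM, at least 6.32-fold lower, and ORC6 was 3.78 against 17.0 FPKM, while ORC2, ORC3, ORC4 and ORC5 were at -0.37, -0.27, 0.63 and -0.25 on the log2 scale. The origin recognition complex was therefore near its proliferating RNA level for 4 subunits. In the same cells CDC6, CDT1 and every gene of the ring were low.

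Genes that restrain or remove CDT1 were low with it. RNA of GMNN, which encodes geminin, was 4.01 FPKM in senescence against 20.6 FPKM, and DTL, the substrate receptor of the ubiquitin ligase that destroys CDT1, was at the floor against 11.2 FPKM. SKP2, of another ligase, was at -1.20, and DDB1, an adaptor with wider roles, was at 0.29. The partners of GINS2 in the active helicase all passed, as CDC45 was at the floor against 15.7 FPKM, and GINS1, GINS3 and GINS4 were at -3.12, -2.23 and -2.67. All 5 measured genes of origin kinases and firing passed 2-fold in senescence, with a median of -1.84, among them DBF4, the activator of the CDC7 kinase, at -2.33. MCM8, a paralog outside the ring, was at -2.11 and MCMBP, which binds ring subunits, at -1.47.

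At the replication fork, 18 of 25 measured genes passed 2-fold lower in senescence and 10 of 25 in quiescence. CLSPN, a checkpoint mediator, was at the floor in senescence against 12.6 FPKM, and PCNA, the sliding clamp, was 29.3 against 114 FPKM. POLE4 was highest of the fork genes, at 0.82, and POLD4, the small subunit of polymerase delta, was at 0.07. In the library labelled transformed, PCNA was at -0.74, SKP2 at -0.87 and POLA1 at -0.66, below most of the list. MCM6 was likewise low among the members. At the other end, CHAF1A RNA was 25.7 FPKM there against 15.8 FPKM in the proliferating culture of the same run. FEN1 was at 0.63, POLD2 at 0.50, GINS1 at 0.49 and ORC6 at 0.49.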

How the data were processed

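The authors deposited 1 table of FPKM values. Per their methods, reads were aligned with Bowtie, uniquely mapped reads were counted on 1 transcript per gene of Ensembl release 65, and the FPKM values were computed over the whole transcript for RNA and over the coding sequence for Ribo-Seq, with values below 1 FPKM set to 1. The submitters' processing notes name the build hg19. Reads shared with near-identical genes were thereby left out. A gene targeted in the transformed line is not reported here. All 12 columns were used and no pair of columns was identical. A column was matched to its sample by title, and replicates that the authors had pooled carry no SD or n.

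From the deposited FPKM, log2 differences were computed with a pseudocount of 0, since the floor is 1 FPKM, and TE as log2 of Ribo-Seq over RNA. Calls were 2-fold, and a 4-fold limit was added for senescence after the data were seen. No p-value was computed, because each state and assay had 1 column. Python 3.11.15, numpy 2.4.6, pandas 2.3.3 and matplotlib 3.10.9 were used, and the scripts were tested on simulated data. The members and lists were chosen with earlier results of these data known. Named genes were the 10 members, list genes at the ends of the range or needed to contrast roles, cell cycle genes, and the 10 genes most alike. Alternatives were other pseudocounts, controls, limits, a filter at 5 FPKM and centring on the median of all genes.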

Additional observations from a re-analysis of the deposited data

Results flagged for a closer look

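2 genes differed from the proliferating culture in opposite directions in the states with oncogenic RAS of the second run, each by over 1.5-fold. CDC6 RNA had a log2 difference of -3.56 in senescence and 0.84 in the library labelled transformed, and its Ribo-Seq differences were -4.41 and 0.75. MCM10 Ribo-Seq differences were -3.68 in senescence, where the gene was at the floor, and 0.61 in the library labelled transformed. Its TE differences were -0.64 and 0.59, the first of which is set by the floor. Against the proliferating culture of the other run the transformed values were -0.09 for CDC6 RNA and -0.26 for MCM10 Ribo-Seq. Those opposite directions thus depended on the control. CDC6 Ribo-Seq kept its direction there, at 0.19, which is short of 1.5-fold. Each value rests on 1 library per state, and the difference between the states was not tested.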

How the results depend on the processing

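In senescence 10 of 10 licensing genes passed 2-fold lower in RNA and in Ribo-Seq under every alternative run, including 3-fold and 4-fold limits, but the median moved. It was -1.98 in RNA and -2.36 in Ribo-Seq with a pseudocount of 5, and -4.02 and -4.47 against the control of the other run. Against the library labelled transformed, the senescent median was -1.98 in RNA with a pseudocount of 5, and -3.05 and -2.25 in Ribo-Seq with pseudocounts of 1 and 5. The other comparisons depended on the settings. Against the control of the other run, the quiescent count went from 9 to 0 in RNA and from 5 to 0 in Ribo-Seq, with medians of -0.22 and -0.14, and the sign turned for 2 of 10 genes in RNA, MCM7 at 0.074 and CDT1 at 0.11, and for 4 in Ribo-Seq, CDT1 at 0.78, MCM5 at 0.69, MCM2 at 0.28 and MCM7 at 0.21. The pre-senescent count there was 0 in RNA and 1 in Ribo-Seq, with medians of 0.32 and -0.078, and the sign turned for 9 of 10 genes in RNA, all but MCM6, and for 4 in Ribo-Seq, CDT1 at 0.85, MCM7 at 0.61, MCM5 at 0.47 and MCM2 at 0.31. The transformed count there was 5 in both assays, with medians of -0.91 and -1.07, and the sign turned for 7 genes in RNA and 3 in Ribo-Seq. In senescence it turned for 0 of 10 in either assay. Against the mean of both controls the counts were 1 in RNA and 1 in Ribo-Seq for quiescence, 0 and 1 for pre-senescence, with a Ribo-Seq median of -0.33, and 2 in Ribo-Seq for the transformed state. With a pseudocount of 5 the counts were 3 and 2 for quiescence, 0 and 2 for pre-senescence, 0 in RNA for the transformed state and 2 in RNA between the proliferating cultures. With the median of all genes subtracted, Ribo-Seq counts were 3 for quiescence, 3 for pre-senescence and 1 for the transformed state. At 1.5-fold they were 10 in Ribo-Seq for quiescence, 4 in RNA and 8 in Ribo-Seq for pre-senescence, 1 in Ribo-Seq for the transformed state, and 9 and 7 between the proliferating cultures. At 3-fold they were 0 and 1 for quiescence, 0 and 1 for pre-senescence, 0 in RNA for the transformed state, and 0 and 1 between the proliferating cultures. The cause was not tested. A median was said to move where it changed by more than a set limit, 0.63 in RNA and 0.61 in Ribo-Seq. The limit was the median absolute log2 difference of the 10 genes between both proliferating cultures, divided by the square root of 2. It is not an SD, as it also holds the shift that the genes shared between the cultures. No paired analysis was possible because the pooled columns carry no replicate numbers, and for the same reason no replicate could be left out. Depth, which was not used here, the floor and 1 column per state limit all values.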
